A study of Lathyrus oleraceus subsp. biflorus and Lathyrus oleraceus and [Pisum sativum] subsp. abyssinicum with 117 samples.

Results

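The genes described are the 60 transcripts with the highest share of counts in the developing pea seed coat that were at the same time much scarcer in the embryo. They were chosen from 31857 annotated pea features with identifiers beginning in Psat, out of 59594 features counted in all. Levels were CPM, counts scaled to the same library total, taken in the main set as mean log2(CPM + 1) at each stage over 4 accessions, Cameor, JI92, JI1794 and PI358617. A gene qualified when its highest seed coat stage mean exceeded 9 and exceeded its highest embryo stage mean over D2 to D5 by at least 3; D1 embryos took no part. In all 361 Psat features passed the level, 177 of them also passed the tissue difference, and the 60 with the highest seed coat maximum were kept. The last 3 genes inside were Psat5g133000, Psat6g183960 and Psat5g227880, with maxima of 10.36, 10.34 and 10.31. The first 3 outside were Psat7g197360, Psat1g170880 and Psat0s1747g0040, with 10.25, 10.24 and 10.21. The list is therefore the top of a continuous series. Among the 107 Psat features at least as abundant as its last member, the other 47 lacked the tissue difference.

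The seed coat is maternal tissue that grows from the integuments of the ovule and encloses the embryo. In pea and other legumes it carries sugars and amino acids from the mother plant to the embryo, and its outer layers form thick-walled palisade cells that later dry into a hard shell. It also accumulates phenolic compounds such as flavonoids and proanthocyanidins. A seed coat that water cannot enter keeps wild pea seeds dormant, a property largely lost in cultivated peas.

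RNA sequencing of 67 seed coat and 50 embryo libraries covered 5 developmental stages named D1 to D5. JI64, JI261 and JI1794 are wild peas (P. elatius), JI92 is a landrace and Cameor a cultivar of domesticated P. sativum, and PI358617 is the Ethiopian pea P. abyssinicum. All plants stood in a glasshouse and received no treatment. A main set of 106 libraries was joined by 11 seed coat libraries of JI64 and JI92 from D1, D2 and D4 whose labels carry the year 2017. Groups held 2 libraries, except the D5 seed coats of Cameor and JI92 and the D1 seed coat of JI64 in 2017, with 1 each. JI261 seed coats lacked D2. The labels do not say whether paired libraries came from different plants, so p-values measure a spread that may be technical. The files give these identifiers no gene names, so each gene is described by its levels and not by a function.

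Library totals ran from 56974538 to 104007300 counts. Among the libraries, 3 labelled seed coat of JI64 stood apart. The members took 0.238% (95% exact interval 0.2365 to 0.2387) of replicate 2 at D1, 0.144% (95% exact interval 0.1431 to 0.1446) of replicate 1 at D5 and 1.75% (95% exact interval 1.749 to 1.756) of replicate 2 at D5. A list of 60 abundant embryo genes was chosen by the same rule with the tissues exchanged. It took 12.5%, 2.06% and 12.6% of these libraries, and its share is set beside the members' values below. In the 50 embryos its share ran from 0.875% to 57.4%, lowest in PI358617 at D1. A low share in a seed coat therefore does not show that embryo RNA was absent, and a higher share does not give its amount. The ranges and tests below leave these 3 libraries out except where said, and tests within JI64 use D2 to D4 or D2 and D4. Intervals cover counting error only, because amplified reads are not independent molecules.

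In the other 64 seed coat libraries the 60 members took between 4.29% and 28.3% of all counts, with a median of 11.2%. The 26 of these libraries that played no part in the choice (JI261, JI64 and the 2017 set) had a median of 11.1%. The 60 genes next in order took a median of 3.64% of the 64 libraries. In the 50 embryo libraries the members took 0.0666% to 0.371%, with a median of 0.159%. None of the 64 seed coats fell in that range. The JI64 libraries left out at D1 (0.238%) and at D5 (0.144%, replicate 1) did fall in it. The rule also required scarcity in D2 to D5 embryos of 4 accessions, so the gap is a description. In bulk tissue, fewer cells of a type and less RNA per cell cannot be told apart.

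**Figure D1:**
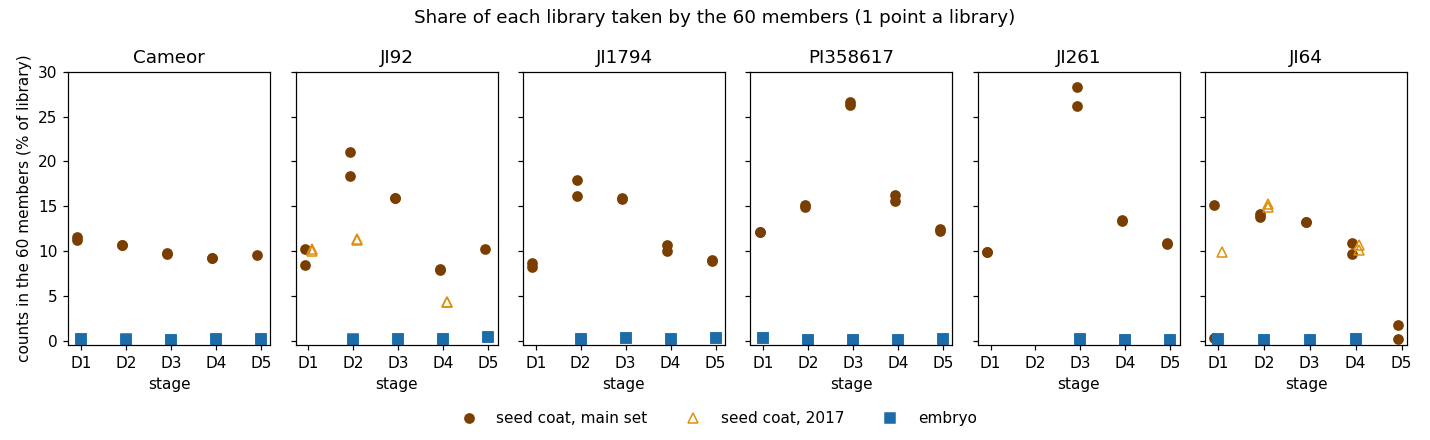
Counts in the 60 members as a percent of each library, by stage (horizontal axis), accession (panels) and kind of library (symbols); each point is 1 library. Seed coats of PI358617 and JI261 at D3 stand highest, at 26.2% to 28.3%, embryos lie at or below 0.371%, and 3 seed coat libraries of JI64 at D1 and D5 lie at 1.75% or less.

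The share followed a different course in each accession. In PI358617 it was 12.1% and 12.2% at D1, reached 26.7% (95% exact interval 26.64 to 26.66) and 26.3% (95% exact interval 26.29 to 26.31) at D3, and was 12.5% and 12.2% at D5. Among the stages measured in JI261, D3 also had the highest shares, 26.2% (95% exact interval 26.20 to 26.22) and 28.3% (95% exact interval 28.28 to 28.30). JI261 had no D2 seed coats, so a higher share at D2 could not be seen. The landrace JI92 had its highest shares at D2, 18.3% and 21.1%, and so did JI1794, with 17.9% and 16.1%. Cameor changed little, from 11.2% and 11.6% at D1 to 9.54% in its 1 library at D5. The lowest shares, 4.29% and 4.34%, were those of the 2017 JI92 seed coats at D4. The embryo list took 10.6% and 10.5% of these libraries, and 11.2% and 11.3% of the main-set JI92 seed coats at D4, where the members took 7.99% and 7.85%. The part of embryo RNA in the low shares was not tested.

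The member with the most counts changed from one group of libraries to the next. Psat1g175840 was the most counted member in 23 of the 64 seed coat libraries, Psat7g234440 in 16, Psat5g004800 in 8, Psat2g026840 in 7, Psat6g018800 in 6 and Psat1g156800 in 4. Raw counts favour long genes. The list and the order of its members rest on CPM, which is not per length, and levels per length are given as deposited FPKM (fragment counts scaled by transcript length and library size). On that scale the highest medians over the 64 libraries were 4667 FPKM for Psat1g175840, 3541 for Psat1g156800, 1660 for Psat7g224480, 1397 for Psat3g179520 and 1268 for Psat5g004800. Psat7g234440, next after Psat1g175840 by number of libraries led, had a median of 851 FPKM and stood at position 11. Psat6g014760 and Psat0s1748g0040, at positions 8 and 9 of the list by CPM, stood at 53 and 58 of the members by median FPKM. The length implied by the ratio of the deposited values had a median of 2664 bases for the members, from 850.0 to 9856, and of 2973 bases for the 18321 Psat features with at least 1 CPM on average in the seed coat. Members were spread over the 7 numbered Psat series, with 4 to 12 in each, and 5 belonged to the Psat0s series. No 2 members had identifiers within 200 of each other in number, so the list holds no run of adjacent identifiers.

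Grouped by the stage at which the mean over the 4 accessions was highest, 12 members peaked at D1 and 22 at D2, while D3 was the peak of 14, D4 of 1 and D5 of 11. These maxima took part in the choice and are given as a description. Over the 5 stages the level moved by a median of 3.89 on the log2 scale. For 29 members it moved by more than 4, and for 10 by less than 1.5.

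**Figure D2:**
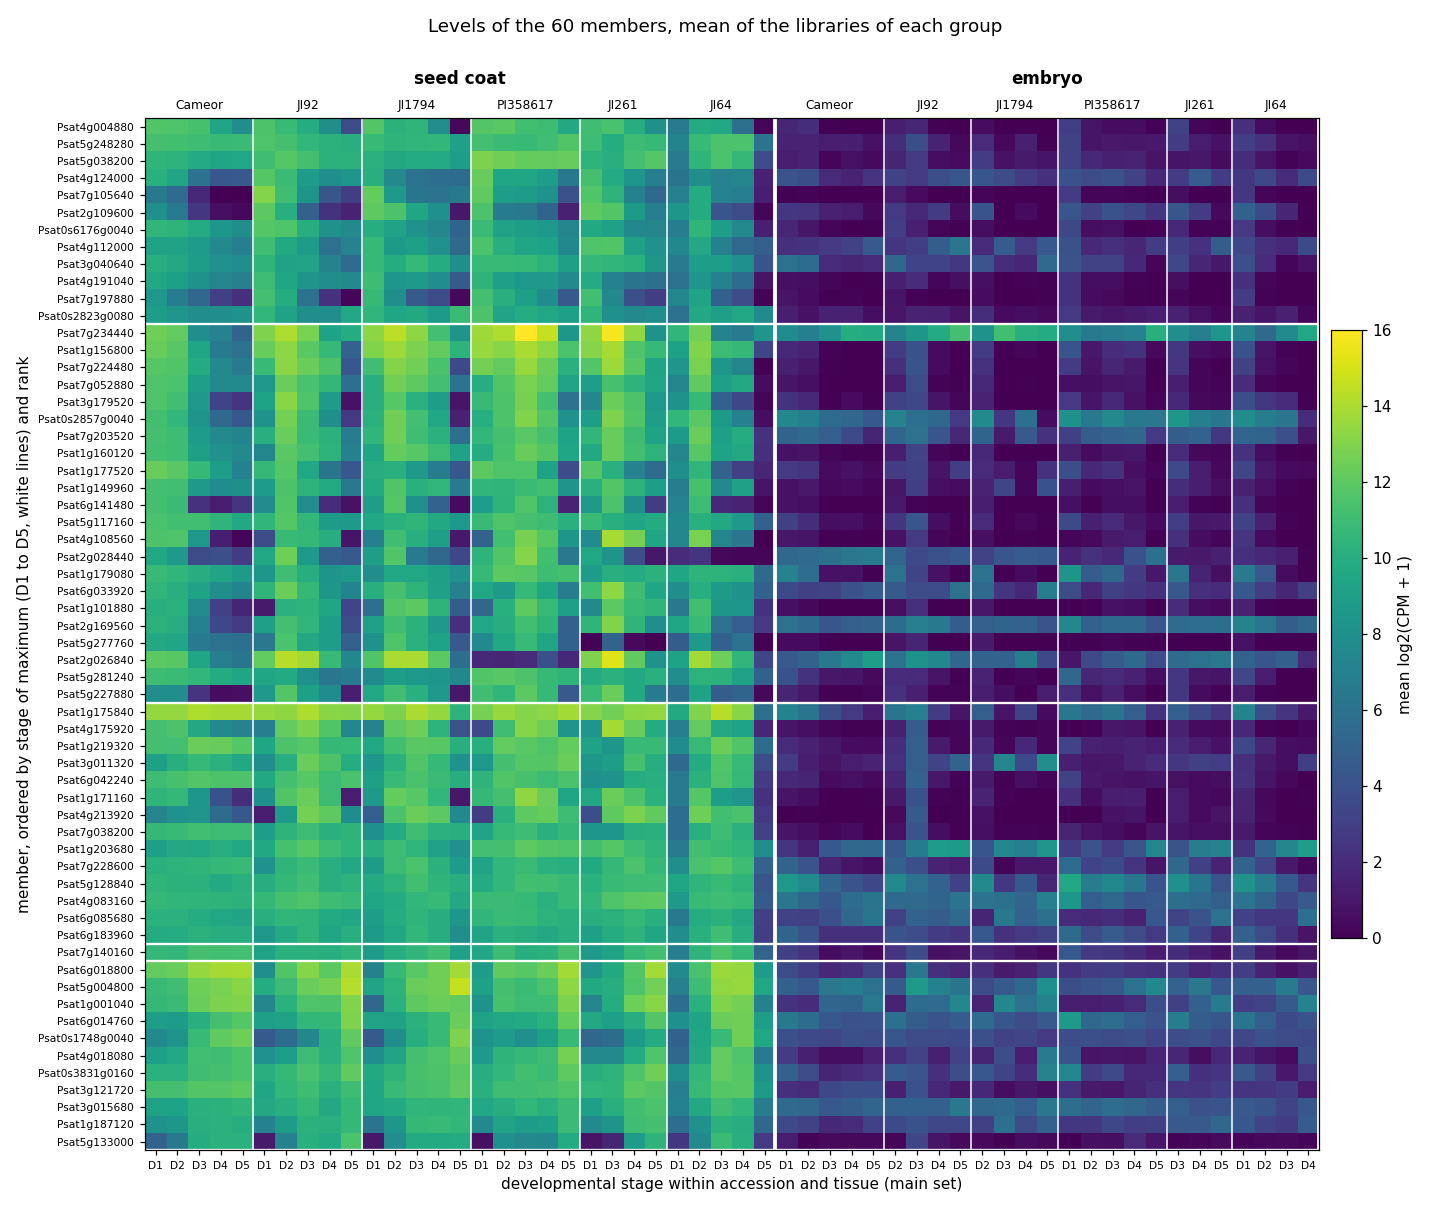
Mean log2(CPM + 1) of each of the 60 members (rows) in every group of seed coat (left) and embryo (right) libraries of the main set, ordered by stage of maximum (white lines) and rank; colour gives the level. All 11 members of the lowest block are higher at D5 than at D1 in the seed coats of the 5 accessions with usable D5 libraries, though in 4 of these accessions 1 or 2 of them are highest before D5; embryo columns are mostly under 4, and the D1 column of JI64 averages 1 seed coat library with the one that stood apart, as the D5 column of JI64 shows the other 2.

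The D5 group held the first gene of the list. Psat6g018800 was higher at D5 than at D1 in every accession with usable D5 libraries. In JI1794 it had 116 and 149 CPM at D1 and 14074 and 14586 CPM at D5, in PI358617 462 and 469 and then 14157 and 13586. Cameor started far higher, with 4505 and 4512 CPM at D1, and ended at 15443 CPM. The 8 usable D5 libraries all lay between 13586 and 15757 CPM, closer together than those of D1. In the 50 embryos the gene had 0.502 to 86.6 CPM, with a median of 3.99.

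Psat5g004800 had 635 and 687 CPM at D1 and 25491 and 24195 CPM at D5 in JI1794, and 560.5 and 563 and then 10132 and 9918 CPM in PI358617. At D5 the accessions stood apart by more than their replicates did, since JI261 had only 6476 and 6642 CPM. Other late members among the first 20 by CPM were Psat1g001040, Psat6g014760, Psat0s1748g0040, Psat4g018080, Psat0s3831g0160 and Psat3g121720. Psat0s1748g0040 went from 22.8 and 22.0 CPM at D1 to 7595 and 7637 CPM at D5 in JI1794, and from 39.4 and 36.8 to only 943 and 892 CPM in JI261. Psat6g014760 was already abundant early, with a lowest value of 432 CPM in any of the 64 seed coat libraries. Psat5g133000 was nearly undetected early, with 0.528 and 0.576 CPM at D1 in PI358617 and 964 and 898 CPM at D5.

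The largest group peaked at D2. Psat7g234440 took the largest share of any library, with 70549 and 67121 CPM in PI358617 at D3. At D5 in PI358617 it had 344 and 358 CPM. In Cameor it had 5383 and 5717 CPM at D1 and already 228 and 228 CPM at D3. The D3 levels of the 2 accessions therefore lay far apart under the same stage label.

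Psat1g156800 and Psat7g224480 followed a like course. Psat1g156800 had 10647 and 9506 CPM at D2 in JI92 and 32.04 CPM in its D5 library, whereas the PI358617 libraries at D5 still had 2877 and 2892 CPM. Psat7g224480 had 8875 and 7601 CPM at D2 in JI1794 and 10.4 and 10.7 CPM at D5. Of the other D2 members among the first 20 by CPM, Psat3g179520 had the widest range over the 64 seed coats, from 0.0912 to 9498 CPM with a median of 1215. Psat7g052880 ranged from 0.622 to 7161 CPM, Psat1g160120 from 7.57 to 5514 CPM and Psat7g203520 from 22.8 to 5857 CPM. Psat0s2857g0040 ranged from 1.44 to 9293 CPM, and it was one of the members with a clear embryo level, a median of 80.6 CPM.

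Psat1g175840 led the D3 group, and its stage means differed by only 1.02 on the log2 scale. In Cameor it had 10740.1 and 12286 CPM at D1, 16619 and 16525 at D3 and 14428 at D5. In JI1794 it was lower late, at 1312 and 1293 CPM at D5 against 11965 and 11062 at D4. Those 2 libraries and the 2017 JI92 seed coats at D4, with 809 and 741 CPM, were the lowest 4 of the 64, and the next had 5633 CPM. Psat4g175920, also of the D3 group, had 9.92 and 11.1 CPM at D1 in PI358617 and 8988 and 8640.5 at D3, while in Cameor it had 2138 and 2698 at D1 and 798 and 816 at D3. Psat1g219320 ranged from 352 to 5325 CPM over the 64 libraries. Besides Psat1g175840, the 10 members that moved by less than 1.5 were Psat5g248280, Psat5g038200, Psat1g203680, Psat5g128840, Psat4g083160, Psat3g015680, Psat7g140160, Psat6g085680 and Psat6g183960, named after their values were seen. Psat4g083160 moved least, by 0.48.

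The D1 group was led by Psat4g004880, which had 3118 and 3498 CPM at D1 in JI1794 and 0.385 and 0.197 CPM at D5. In PI358617, which kept more of it, it had 3454 and 3408 and then 811 and 785 CPM.

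**Figure D3:**
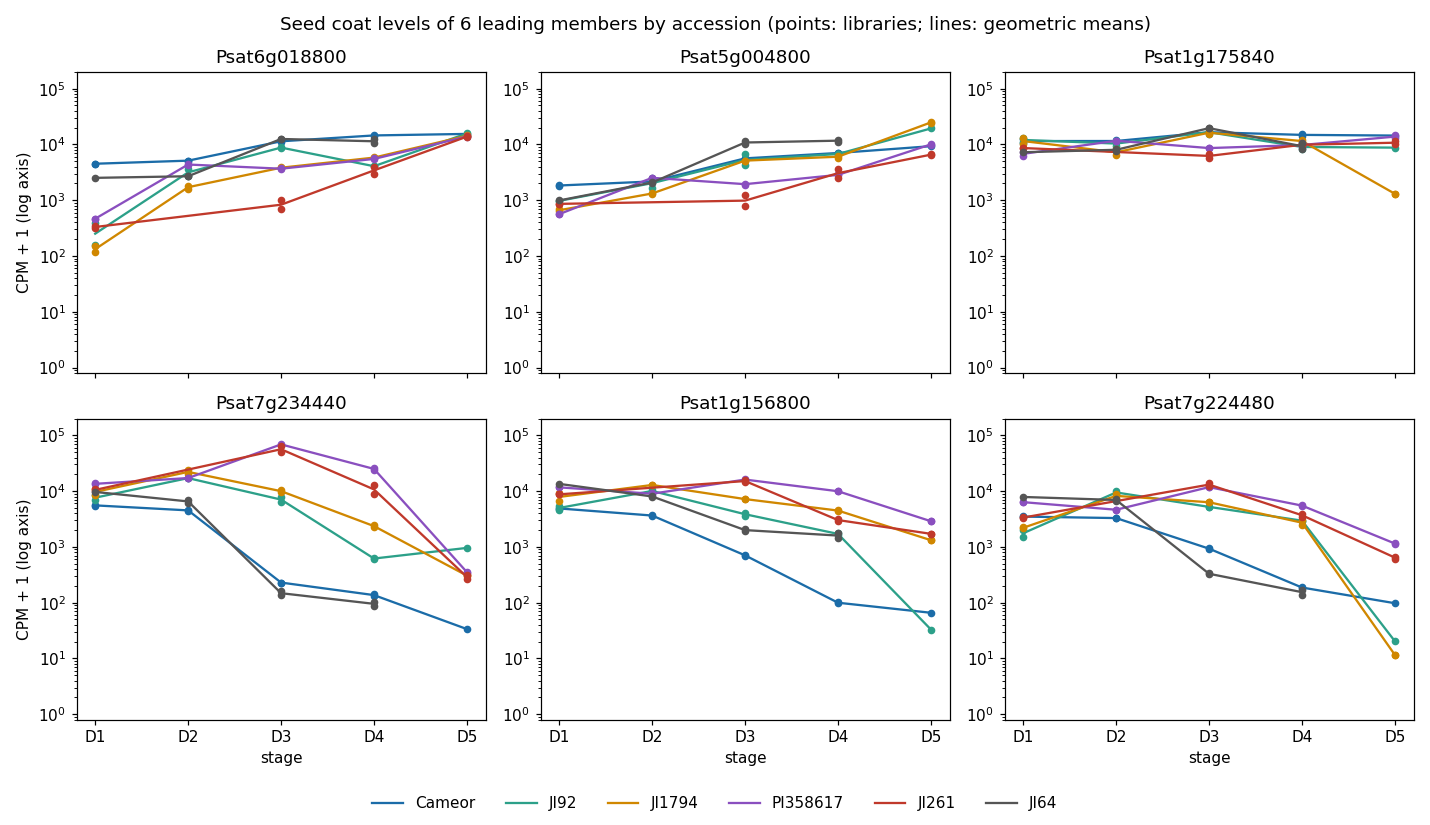
Seed coat levels (CPM + 1, log axis) of 6 abundant members by stage in the main set, with 1 point a library and lines through geometric means, coloured by accession; the 3 JI64 libraries that stood apart are left out. Psat6g018800 and Psat5g004800 are higher at D5 than at D1, Psat1g175840 is lowest in JI1794 at D5, and the other 3 are lower at D3 than at D1 in Cameor and JI64 but higher at D3 than at D1 in PI358617 and JI261.

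The stage of the highest level differed between accessions. In the main set 34 of the 60 members were highest at D1 in Cameor, against 11 each in JI92, JI1794 and PI358617 and 12 in JI261. At D2 the highest level was reached by 5 members in Cameor, 23 in JI92, 20 in JI1794 and 8 in PI358617, and at D3 by 8 in Cameor, 15 in JI92 and in JI1794, 22 in PI358617 and 23 in JI261. At D5 it was 11 in Cameor and JI92, 10 in JI1794, 16 in PI358617 and 18 in JI261. JI261 had no D2 seed coats, so its counts are over D1, D3, D4 and D5 only. Members highest at D2 could not be seen there. In JI64, whose D1 and D5 groups hold the libraries that stood apart, 36 were highest at D2 and 20 at D3. Over the 3 stages of the 2017 set, 28 members were highest at D1 and 28 at D2 in JI92, and 15 and 31 in JI64. The labels give no age in days.

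Embryos held small amounts of the members. In the 4 accessions of the rule, the highest embryo stage mean over D2 to D5 was under 2 on the log2(CPM + 1) scale for 27 members and over 5 for 16. With the D1 embryos of Cameor and PI358617 added, it was under 2 for 16 and over 5 for 20. Psat7g234440 took the most embryo counts. It had a median of 278 CPM over 50 embryos, at least 100 CPM in 46 of them, and up to 2505 CPM in a D5 embryo of JI92. Over the stages its seed coat mean fell from 13.67 at D2 to 7.92 at D5 while its embryo mean went from 7.20 to 10.23, so that at D5 the embryo level was the higher one. Of the 60 members, 19 had their highest embryo value in a JI92 embryo at D3 and 16 in a PI358617 embryo at D1. The members took 0.224% and 0.232% of the former libraries and 0.330% and 0.324% of the latter. The embryo list took 50.9% and 51.1% of the former and only 0.892% and 0.875% of the latter, and its part in these values was not tested.

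The tissue difference was tested in the wild accessions JI261 and JI64, which took no part in the choice. All 60 members were measured in both. In JI261, over D3 to D5 with 6 libraries a tissue, 59 of 60 members were higher in the seed coat and 0 lower (edgeR, adjusted p under 0.05), where 27.2% of all 27397 features tested were higher and 34.5% lower. The median log2 fold change of the members was 8.50, against -0.29 over all features. In 58 of 60 members every seed coat library lay above every embryo library, as it did for 13.9% of features with counts. In JI64, over D2 to D4 with 6 libraries a tissue, 57 of 60 were higher and 0 lower, against 30.7% and 22.5% of 29611 features. The members' median was 10.02, against 0.13 over all features, and 56 of 60 did not overlap, as 19.7% of features did not. The embryo list took 0.872% to 5.41% of these JI261 seed coats and 1.41% to 2.83% of these JI64 seed coats.

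Among the largest differences in JI261, Psat7g224480 had 14058 and 12174 CPM in the seed coat at D3 and 4.80 and 3.92 in the embryo, and 671 and 613 against 0 and 0.0605 at D5. Its seed coats all lay above its embryos (log2 fold change 12.63 with SE 0.51, adjusted p = 2.48e-08 by edgeR). Psat4g175920 (log2 fold change 12.24 with SE 0.71, adjusted p = 2.18e-07 by edgeR) and Psat7g105640 (log2 fold change 12.16 with SE 0.42, adjusted p = 1.1e-08 by edgeR) came next. In JI64, Psat4g213920 had 2211 to 5741 CPM in the 6 seed coats, with a median of 2727, and 0 to 0.352 CPM in the 6 embryos (log2 fold change 15.35 with SE 1.10, adjusted p = 2.42e-06 by edgeR). Psat7g052880 (log2 fold change 14.55 with SE 0.79, adjusted p = 4.95e-07 by edgeR) and Psat1g101880 (log2 fold change 14.11 with SE 0.62, adjusted p = 1.73e-07 by edgeR) followed. The embryo counts of these 3 genes in JI64 summed to 43, 29 and 17 over the 6 libraries, so the size of their folds is imprecise.

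**Figure D4:**
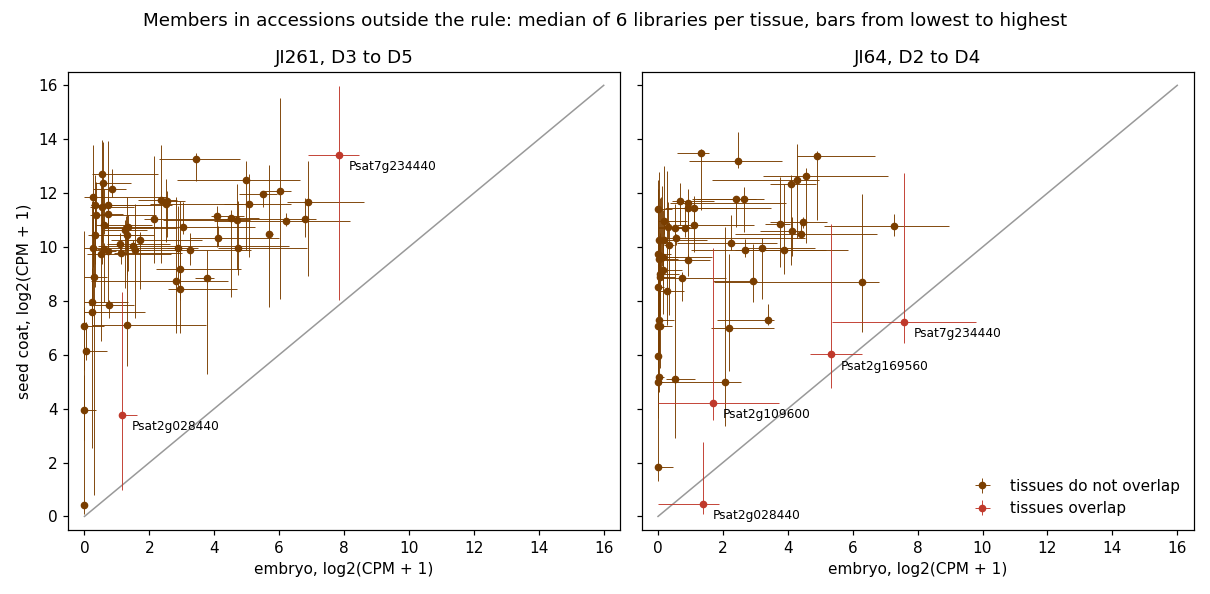
Seed coat against embryo level of the 60 members, as log2(CPM + 1), in JI261 (left) and JI64 (right); points are medians of 6 libraries a tissue, bars run from the lowest to the highest library, and the line marks equal levels. Nearly all members lie far above the line, 2 in JI261 and 4 in JI64 (red, named) have overlapping tissues, and in JI64 the medians of Psat7g234440 and Psat2g028440 lie below the line.

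The few members that did not pass had some seed coat libraries no higher than their highest embryo library. Psat2g028440 did not pass in JI261 (log2 fold change 2.68 with SE 1.66, adjusted p = 0.180 by edgeR), where it had 320.2 and 298 CPM at D3 and 1.11 and 0.995 at D5, against 1.07 to 2.09 CPM in the embryos. In JI64 it had 0.0726 to 5.83 CPM in the seed coats and 0 to 2.69 CPM in the embryos (log2 fold change -0.61 with SE 1.03, adjusted p = 0.637 by edgeR). Psat7g234440 in JI64 had 6865 and 6209 CPM in the D2 seed coats but 86.5 to 161 CPM in those of D3 and D4, with 40.4 to 885 CPM in the embryos (log2 fold change -0.80 with SE 1.70, adjusted p = 0.706 by edgeR). With D1 added, its log2 fold change was 1.41. Psat2g169560 behaved alike in JI64, with 1842 and 1732 CPM at D2, 26.3 to 68.3 CPM at D3 and D4, and 24.7 to 76.7 CPM in the embryos (log2 fold change 0.74 with SE 0.76, adjusted p = 0.430 by edgeR). Both tissues overlapped in these genes.

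Change over development was tested in the seed coats of JI261, with 2 libraries at each of D1, D3, D4 and D5. From D1 to D5, 54 of 60 members passed (edgeR), 30 upward and 24 downward, where 42.0% of 25494 features passed. From D1 to D3, 45 rose and 6 fell, against 13.6% and 11.3% of features, and from D3 to D5, 15 rose and 38 fell, 53 in all, against 36.1% of features in either direction. From D1 to D4, 37 rose and 15 fell, 52 in all, against 35.4%. The embryo list took 0.188% to 0.190% of the D1 libraries, 0.872% to 0.900% at D3, 4.44% to 5.07% at D4 and 5.18% to 5.41% at D5. Its part in these changes was not tested.

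The stage groups, defined in the other 4 accessions, were then followed in JI261. Of all 25494 features tested, 5102 rose and 5609 fell from D1 to D5, and 4445 rose and 4767 fell from D3 to D5. All 11 members of the D5 group rose over the whole interval to D5 (median log2 fold change 3.91), and 10 of the 12 of the D1 group fell, with a median of -3.06. Of the 22 in the D2 group, 13 fell and 6 rose from D1 to D5, whereas 19 rose and 1 fell from D1 to D3 and 21 fell and 0 rose from D3 to D5. Of the 14 in the D3 group, 11 rose and 1 fell from D1 to D5. Psat7g140160, the only member with its maximum at D4, rose too.

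Psat6g018800 had 341 and 319.8 CPM at D1, 1005 and 685 at D3, 3922 and 2989.8 at D4 and 13986 and 13601 at D5. Each stage lay above the one before without overlap, and the mean at D5 was 48.6-fold that at D1 (log2 fold change 5.60 with SE 0.22, adjusted p = 1.27e-06 by edgeR). Psat5g133000 showed the largest rise, from 0.892 and 0.672 CPM at D1 to 1368 and 1366 CPM at D5 (log2 fold change 10.98 with SE 0.84, adjusted p = 2.65e-05 by edgeR). Its D3 libraries, with 4.49 and 0.749 CPM, still overlapped D1. Psat4g213920 rose from 13.2 and 13.3 to 4826 and 3667 CPM between D1 and D3 and stayed high, with 4347 and 4313 CPM at D5 (log2 fold change 8.57 with SE 0.17, adjusted p = 1.4e-07 by edgeR). Psat1g001040 had the next largest rise from D1 to D5 (log2 fold change 6.14 with SE 0.13, adjusted p = 1.96e-07 by edgeR).

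Among the genes that fell, Psat2g028440 went from 781 and 763 CPM at D1 through 12.2 and 12.9 at D4 to 1.11 and 0.995 at D5 (log2 fold change -9.30 with SE 0.15, adjusted p = 9.94e-08 by edgeR). Psat7g197880 (log2 fold change -8.24 with SE 0.33, adjusted p = 1.43e-06 by edgeR) and Psat7g105640 (log2 fold change -6.01 with SE 0.19, adjusted p = 5.38e-07 by edgeR) fell next most. From D1 to D4, Psat5g133000, Psat4g213920 and Psat1g001040 rose most, by log2 fold changes of 9.42, 9.31 and 5.42, and Psat7g197880, Psat2g028440 and Psat7g105640 had -7.09, -5.75 and -4.40 (edgeR adjusted p at most 7.31e-05 for all 6). Psat7g197880 fell already from D1 to D3 (log2 fold change -2.92 with SE 0.26, adjusted p = 0.000183 by edgeR), followed by Psat4g191040 (log2 fold change -2.05 with SE 0.12, adjusted p = 3.22e-05 by edgeR) and Psat0s2823g0080 (log2 fold change -1.69 with SE 0.16, adjusted p = 0.000285 by edgeR).

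Between D1 and D3 the largest gains, after Psat4g213920, were those of Psat5g277760 (log2 fold change 8.98 with SE 0.39, adjusted p = 6.56e-06 by edgeR) and Psat4g108560 (log2 fold change 6.93 with SE 0.15, adjusted p = 8.32e-07 by edgeR). Psat4g108560 went from 214 and 212 to 14799 and 16138 CPM and back to 696 and 662 at D5, which still lay above D1. From D3 to D5 the deepest falls were those of Psat5g277760 (log2 fold change -9.53 with SE 0.41, adjusted p = 2.59e-06 by edgeR), Psat6g141480 (log2 fold change -9.46 with SE 0.27, adjusted p = 6.06e-07 by edgeR) and Psat2g028440 (log2 fold change -8.72 with SE 0.15, adjusted p = 1.79e-07 by edgeR). The Psat5g277760 folds rest on levels of at most 0.417 CPM outside D3 and are imprecise. Psat6g141480 dropped from 3373 and 2322 to 6.79 and 4.84 CPM. After Psat5g133000, Psat0s1748g0040 (log2 fold change 3.66 with SE 0.41, adjusted p = 0.000277 by edgeR) and Psat6g018800 (log2 fold change 3.51 with SE 0.20, adjusted p = 9.3e-06 by edgeR) rose most over that interval.

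The 2017 seed coats of JI92, sampled at D1, D2 and D4, gave a second course. From D1 to D4, 13 members rose and 45 fell (edgeR), where 29.9% of 28789 features rose and 34.7% fell, and from D1 to D2, 31 rose and 23 fell, against 22.8% and 27.4%. All 11 members of the D5 group rose from D1 to D4, all 12 of the D1 group and all 22 of the D2 group fell, and of the 14 in the D3 group 10 fell and 2 rose. From D1 to D2 all 14 of the D3 group rose and all 12 of the D1 group fell. The embryo list took 0.264% and 0.270% of the D1 libraries, 4.11% and 4.20% of D2 and 10.6% and 10.5% of D4, and its part was not tested.

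The falls were deep. Psat7g224480 had 3712 and 3692 CPM at D1, 4735 and 4702 at D2 and 0.696 and 0.691 at D4 (log2 fold change -11.96 with SE 0.08, adjusted p = 2.86e-08 by edgeR for D4 against D1). Psat3g179520 went from 2211 and 2109 CPM at D1 to 0.326 and 0.0912 at D4 (log2 fold change -12.96 with SE 0.31, adjusted p = 2.14e-07 by edgeR), and Psat7g197880 from 2740.2 and 2739 to 0.0592 and 0.495 (log2 fold change -12.79 with SE 0.56, adjusted p = 2.58e-06 by edgeR). In the main set the JI92 seed coats at D4 had 2967 and 2939 CPM of Psat7g224480 and the D5 library 19.3, so the 2017 libraries at D4 lay below D5 of the main set. The share of the embryo list at D4 was nearly the same in both sets, 10.5% to 10.6% in 2017 and 11.2% to 11.3% in the main set.

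Among the genes that rose, Psat5g133000 had 4.97 and 4.65 CPM at D1 and 1239 and 1316 at D4 (log2 fold change 8.47 with SE 0.09, adjusted p = 2.86e-08 by edgeR). Psat0s1748g0040 rose from 38.0 and 39.1 to 4723 and 4981 CPM (log2 fold change 7.39 with SE 0.10, adjusted p = 3.36e-08 by edgeR) and Psat5g004800 from 682 and 687 to 13024 and 11400.0 CPM (log2 fold change 4.57 with SE 0.08, adjusted p = 9.23e-08 by edgeR). By D2 the largest gains were those of Psat5g133000, Psat4g213920 and Psat3g011320, with log2 fold changes of 8.15, 6.86 and 4.52. The deepest falls by D2 were those of Psat7g197880, Psat2g109600 and Psat7g105640, with -7.74, -7.35 and -6.15 (edgeR adjusted p at most 1.91e-05 for all 6).

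Set side by side, 51 members were called from D1 to D4 in both JI261 and the 2017 JI92 seed coats. Of these, 13 rose in both, 15 fell in both, and 23 rose in JI261 and fell in JI92, with 0 the other way. These are 25.5%, 29.4%, 45.1% and 0.0% of the 51. Of the 7327 features called in both, 36.1% rose in both, 39.5% fell in both, 15.6% rose in JI261 and fell in JI92, and 8.8% did the reverse. The difference between the courses was not itself tested.

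Accessions were compared next. As the mean CPM over D1, D3 and D4, the stages that all 6 accessions share, the highest accession exceeded the lowest by a median of 4.86-fold over the 60 members. Within 4-fold lay 24 members, and 11 spanned more than 10-fold. PI358617 was the highest accession for 26 members, JI261 and JI64 for 11 each, Cameor for 7, JI92 for 3 and JI1794 for 2. Cameor was the lowest for 23, JI261 for 11, JI1794 for 9, JI64 and PI358617 for 6 each and JI92 for 5. The most even member was Psat3g015680, with 1.47-fold. Libraries of Cameor, JI92, JI1794 and PI358617 also chose the genes, and the same counts were not made over all features. The counts above therefore describe the members and do not set them apart from other features.

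For 6 members, 1 accession had less than 0.1 of the median over accessions. Psat2g026840, with 31275 and 46906 CPM in JI261 at D3 and 16461 and 24469 in JI92 at D2, had 1.90 to 21.3 CPM in the 10 seed coats of PI358617, with no overlap with the other 5 accessions at D1 to D4. Its mean in PI358617, 6.92 CPM, was 2468-fold below that of JI261. The gene qualified through the other 3 accessions of the rule. It was the only member this scarce in PI358617.

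Psat2g028440 was scarce in JI64 and most abundant in PI358617. It had 8923 and 8727 CPM in PI358617 at D3 and 5078 and 6507 CPM in JI92 at D2. In the JI64 main set it had at most 5.83 CPM, and its mean of 1.01 CPM was 4140-fold below that of PI358617. The 2017 JI64 library at D1 had 97.3 CPM and those at D2 9.24 and 9.67, so the transcript was detected in that accession.

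Psat5g277760 was the third such gene, scarce in JI261. Its seed coats had 0.117 and 0.0983 CPM at D1, 29.8 and 36.7 at D3 and 0.0635 and 0.0622 at D5, while JI1794 had 3247 and 2821 at D2 and 1178 and 1162 at D3. JI261 lacked libraries at D2, where the gene was highest in JI92 and JI1794. In the JI261 and JI64 embryos it had 2 and 3 counts in all over 6 libraries each, too few for a fold.

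The remaining 3 were scarce in Cameor. Psat7g105640 had 85.7 and 88.1 CPM there at D1 and 0.0726 and 0.0452 at D4, while JI92 had 8165 and 8341 at D1 and 19.7 and 17.9 at D4. Psat2g109600 had 260.7 and 255.5 CPM in Cameor at D1, against 2874 to 4532 CPM in the main-set D1 libraries of the other accessions. Psat4g213920 had at most 327 CPM in any Cameor seed coat and 6537 and 6211 in JI92 at D3, although at D1 Cameor, with 156 and 156 CPM, lay above JI92, with 0.0560 and 3.99. Cameor is also the accession whose genome served as the mapping reference.

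**Figure D5:**
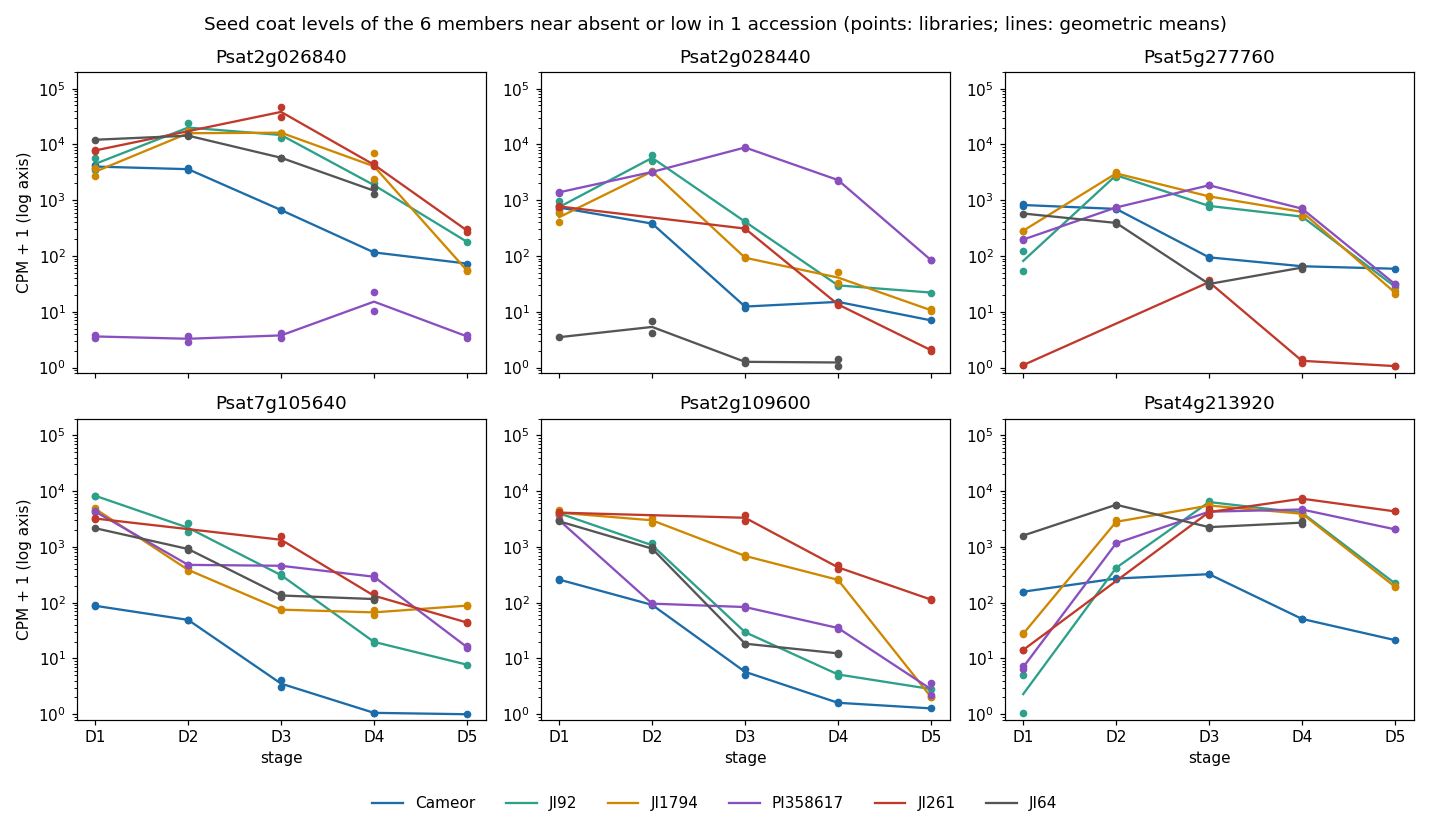
Main-set seed coat levels (CPM + 1, log axis) by stage of the 6 members whose mean in 1 accession was under 0.1 of the median over accessions, with 1 point a library and lines through geometric means, coloured by accession; the 3 JI64 libraries that stood apart are left out. Psat2g026840 stays at 1.90 to 21.3 CPM in PI358617, Psat2g028440 at 5.83 CPM or less in JI64 and Psat5g277760 at 36.7 CPM or less in JI261, and the lower 3 genes are lowest in Cameor at most stages.

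Wild and domesticated accessions, the contrast named by the study, were compared over seed coat counts of D1, D3, D4 and D5 summed per accession, 3 wild sums (JI64, JI261, JI1794) against 2 domesticated ones (Cameor, JI92). These sums include the 3 JI64 libraries that stood apart. They are sums of raw counts, and D5 has 2 libraries in each wild accession but 1 each in Cameor and JI92. D5 thus weighs more in the wild sums, and the part of this in the differences was not tested. No member passed (0 of 60 in edgeR, adjusted p under 0.05), nor did any feature (0.0% of 35034), and 1437 features and 1 member had an unadjusted p under 0.05. That member, Psat0s6176g0040, was lower in wild seed coats (log2 fold change -1.33, with SE 0.49, adjusted p = 1.00 by edgeR). In all 42 of 60 members had positive differences, in a contrast whose Cameor, JI92 and JI1794 libraries also chose the genes, so this count is a description. DESeq2 called 0 members, though 1502 features were higher and 1274 lower, and limma called 0 members with either pseudocount. Without D5 and the JI64 library at D1 that stood apart, 0 members passed and 1240 features had an unadjusted p under 0.05. Treating each library as a replicate, which measures these 5 accessions rather than wild and domesticated peas, 7 members passed, or 11.7% of them, against 30.8% of features. With 5 sums, a count of 0 does not show that the classes are alike. The test also missed the changes put into simulated counts, though their spread was set by hand and not taken from these data.

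Single accessions were compared with more libraries. The fit used the 32 seed coat libraries of Cameor, JI92, JI1794 and PI358617 at D1 to D4 and averaged over stages. These libraries also chose the genes, so the counts below describe the members, are set beside the share of features for scale only, and do not test whether the members differ from other features. PI358617 was higher than the mean of Cameor and JI92 for 46 members and lower for 6 (edgeR), against 30.7% and 24.6% of 37159 features. Psat5g227880, Psat2g028440 and Psat7g105640 were most above, with log2 fold changes of 4.63, 4.23 and 4.02. Psat2g026840 was far below (-9.13), followed by Psat5g133000 (-1.56) and Psat5g004800 (-0.67). Of the 22 members of the D2 group 20 were higher in PI358617, and of the 11 of the D5 group 5 were higher and 3 lower. At D4, the embryo list took 4.59% to 4.88% of the PI358617 libraries, 2.73% to 2.90% of those of Cameor and 11.2% to 11.3% of those of JI92. Without D4 of every accession 54 members passed, beside 54.7% of features.

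JI1794 was higher for 28 members and lower for 19, against 24.6% and 22.6% of features. Psat2g109600, Psat5g227880 and Psat7g105640 were most above (log2 fold changes of 4.66, 3.12 and 2.55). Psat6g018800, Psat0s6176g0040 and Psat1g177520 were most below (-1.50, -1.39 and -1.36). This contrast and that of PI358617 share the Cameor and JI92 libraries.

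The 2 domesticated accessions differed from each other as well. JI92 was higher than Cameor for 42 members and lower for 13, against 28.7% and 30.4% of features. Psat7g105640 (7.26), Psat5g227880 (5.52) and Psat2g109600 (3.64) were most above on the log2 scale. Psat0s1748g0040 (-2.39), Psat5g281240 (-1.73) and Psat6g018800 (-1.27) were most below. With a 2-fold minimum 33 members passed for PI358617 (31.1% of features), 22 for JI1794 (22.6%) and 32 for JI92 (35.7%). These calls rest on the replicate spread within accession and stage. With 1 library of each group left out, accession and stage had to be fitted as additive terms, and the numbers of members called were 16 to 20 for PI358617, 3 to 5 for JI1794 and 7 to 10 for JI92. Over the same fits 15.4% to 29.9% of features passed.

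The 2017 set was also set against the main set over D2 and D4. In JI92, whose main set took part in the choice of the genes, 1 member was higher in 2017 and 20 were lower (edgeR), against 4.74% and 8.46% of 28639 features, which describes the members and tests nothing about them as a list. The member that was higher was Psat0s1748g0040, with 1063 and 1020.5 CPM at D4 in the main set and 4723 and 4981 in 2017 (log2 fold change 2.78). Psat7g197880 (-5.49), Psat5g227880 (-5.21) and Psat5g277760 (-4.73) were most below on the log2 scale. For Psat5g277760 the 2017 libraries were lower at D2, with 633 and 642 against 2613 and 3013 CPM, and at D4, but higher at D1, with 764 and 767 against 52.9 and 123. Over D1 and D2, without D4, 2 members passed (1.91% of features), and with either replicate number left out 0 members and 0.0% of features did. DESeq2 called 49 members (29.2% of features), and limma 32 or, with a pseudocount of 0.1, 34 (19.2% and 21.2%).

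In JI64 neither set took part in the choice. There 3 members were higher in 2017 and 1 lower (edgeR), against 1.01% and 0.585% of 29401 features, with a median of 0.00. Psat7g197880 (log2 fold change 2.04 with SE 0.35, adjusted p = 0.0288 by edgeR), Psat7g105640 (log2 fold change 0.99 with SE 0.12, adjusted p = 0.00724 by edgeR) and Psat5g227880 (log2 fold change 0.82 with SE 0.12, adjusted p = 0.0194 by edgeR) were higher. Psat3g011320 was lower (log2 fold change -0.58 with SE 0.11, adjusted p = 0.0404 by edgeR). With a 2-fold minimum 1 member passed (0.997% of features), with either replicate number left out 0 did, and DESeq2 called 17 (9.97%). Psat7g105640 had 962 and 870.2 CPM at D2 in the main set and 1777 and 1785 in 2017, and 121 and 109.8 and 228 and 217 at D4, with no overlap at either stage. Whether the JI64 and JI92 differences between sets themselves differ was not tested.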

How the data were processed

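Seed coats and embryos of 6 accessions were measured by RNA sequencing of messenger RNA enriched with oligo(dT) beads, per the labels' protocols. Reads were mapped to the Cameor genome version 1.0, per the series' design text, and HISAT2 2.1.0 and StringTie 2.1.0 are named, without their roles, in the submitters' processing notes. The counting rule, its treatment of strand and of reads that match several genes are not stated in the labels or files, so levels of near-identical or overlapping genes are uncertain. The authors deposited a table of raw read counts per feature, which are whole numbers, and a table of FPKM values for the same features and libraries. Of 65673 genes in a RefSeq annotation of a different assembly, 0 carried one of these identifiers, so no names, sequences or coordinates are given. No member shared its identifier with another row.

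The members, gene lists, tests and alternatives were chosen with earlier results of these data known. Each test was fitted across all features with edgeR 4.0.16 in R 4.3.3 (TMM scaling, default low-count filter, quasi-likelihood F test with robust fitting, Benjamini-Hochberg adjustment over all features tested, threshold 0.05). SE was the absolute log2 fold change divided by the square root of F. Alternatives were DESeq2 1.42.0 on the counts, limma 3.58.1 on log2 FPKM with a pseudocount of 1 or 0.1, and RLE scaling, no low-count filter, a 2-fold minimum, a replicate block and left-out libraries. Tested on simulated data, the JI261 tissue fit recovered the changes put in and the fit of accession sums did not. The spread between simulated libraries was set by hand, much smaller for the tissue fit, and was not estimated from these data. The outcomes of the fits therefore cannot be compared with each other. Members named were the first 20 by CPM, up to 3 with the largest change per contrast and direction, those not passing a tissue test, those whose mean in an accession was under 0.1 of the median, and those nearest the end of the list. Accession means used D1, D3 and D4 in place of the planned D1 to D4, because JI261 lacked D2. Replicate pairs, 57 in all, differed by at least 5.42 times sampling noise, so none was taken as 1 library deposited under 2 names. The smallest library had 56974538 counts, and the spread between libraries exceeded counting error.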

Additional observations from a re-analysis of the deposited data

Results flagged for a closer look

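In the genes given here the CPM of D1 and D4 seed coats did not overlap in JI261, nor in the 2017 set of JI92. Their levels moved upward in JI261 and downward in the 2017 JI92 set. Among all 60 members, 25 moved this way without overlap and 0 the other way. The same count was not made over all features. The 12 are those of the 25 among the genes named by rule whose fitted changes also had opposite signs. All 12 were also lower in 2017 than in the main JI92 set over D2 and D4, with log2 fold changes from -6.98 to -1.29. Only Psat0s2857g0040, Psat7g203520 and Psat5g277760 passed that test (edgeR). JI261 and the 2017 JI92 libraries thus differ in both accession and set, and the difference between their courses was not tested. The log2 fold changes from D1 to D4 (edgeR) were 5.16 in JI261 and -8.29 in JI92 for Psat4g108560, 4.45 and -12.96 for Psat3g179520, and 4.25 and -4.30 for Psat4g175920. They were 3.40 and -2.28 for Psat1g101880, 2.96 and -6.93 for Psat0s2857g0040, and 1.77 and -6.82 for Psat5g277760. Psat1g219320 had 1.73 and -1.35, Psat7g052880 had 1.66 and -10.83, and Psat1g160120 had 1.65 and -6.69. The smallest moves in JI261 were those of Psat7g203520, with 0.67 and -6.13, Psat1g175840, with 0.39 and -2.87, and Psat7g224480, with 0.34 and -11.96. The embryo list took 4.44% to 5.07% of the JI261 seed coats at D4 and 10.5% to 10.6% of the 2017 JI92 seed coats at D4, and its part in the difference was not tested. Psat5g277760 had at most 0.417 CPM in the JI261 seed coats at D1 and D4, so its value there is imprecise.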

How the results depend on the processing

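The tissue and stage counts stayed within 1.5 times the reported ones under every alternative run. Leaving out 1 replicate number gave 52 to 53 members for tissue in JI261 and 50 in JI64. Over all features the share passing fell much further, from 62% to 16% and 17% in JI261. In JI64 it fell from 53% to 7% with either number left out. The tissue counts of members thus stayed near the reported ones, while those of all features did not. Leaving out 1 library left 1 in a group of the stage fits, so no counts are given for them. Wild against domesticated gave 0 members under each alternative but one, libraries taken as replicates (7). A 2-fold minimum gave 22 members for JI1794 (47 reported), 33 for PI358617 (52), 32 for JI92 against Cameor (55) and 1 for the 2017 JI64 set (4). Leaving out a replicate number gave 3 to 5, 16 to 20 and 7 to 10 in the 3 accession contrasts, and 0 to 0 in both 2017 contrasts. The accession fits then had additive terms, by construction with more residual spread, and their shares of features are given above. For the 2017 JI92 set (21) DESeq2 gave 49, limma 32 and, with the pseudocount of 0.1, 34, and D1 with D2 gave 2. For the 2017 JI64 set DESeq2 gave 17 (9.97% of features), limma with 0.1 gave 7 (2.23%) and the replicate block gave 1 (0.633%). Where not named, the cause was not tested. With a replicate block the other counts were 59 and 57 for tissue (58.3% and 48.1% of features) and 54 and 58 for stage (40.2% and 58.2%). They were 47, 52 and 55 for the accessions (47.1%, 55.2% and 59.0%) and 15 for the 2017 JI92 set (7.25%). No paired analysis was possible for accession sums because they carry no replicate number. Differences between replicates 1 and 2 were correlated between groups, and the median correlation of a fit lay between -0.031 and 0.027. Single values ran from -0.33 to 0.73, both in the accession fit. The numbers were therefore not taken as pairs. Other rules kept 46 to 60 of the members, fewest when FPKM replaced CPM.

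Named genes with a turned sign were these. In the JI64 tissue test Psat2g028440 had 0.0143 with limma and -1.58 to 0.41 without a replicate, and Psat7g234440 had 1.19 and 1.22 with limma and 1.41 with D1 added. With limma (both pseudocounts) Psat3g121720 had -0.0967 and -0.0970 from D1 to D3 in JI261 and -0.0513 and -0.0510 for PI358617, Psat0s3831g0160 -0.0945 and -0.0947 for PI358617 and -0.0629 and -0.0630 for JI92 against Cameor, and Psat1g175840 -0.26 for JI92 against Cameor. Without a replicate number, Psat3g179520 had -0.20 to -0.0261 for JI1794 and Psat4g175920 -0.61 to 0.0636 for JI92 against Cameor, and Psat5g277760 had 0.19 in 2017 against main JI92 without D4. Of the other values of single members, 2670 kept direction and call, 191 lost the call and 5 gained it. Alternatives that left out D4, added D1 or took D2 against D1 were chosen after seeing the data. Counts near 0 in embryos and late seed coats are imprecise.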
